A study of Gallus gallus with 6 samples.

Results

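Osteocrin, the secreted peptide encoded by OSTN, was examined in cultured chicken muscle cells together with the natriuretic peptide receptors and the kinase that acts below them. The genes were chosen by name from the deposited tables: OSTN, the receptors NPR1, NPR2 and NPR3, the ligand gene NPPC and the cGMP-dependent kinase gene PRKG1. Of these 6 names, 4 had an entry among the 26591 gene entries, namely OSTN, NPR1, NPR3 and PRKG1. The 2 names NPR2 and NPPC had none and were not analysed here. Only 11074 of the entries carry a symbol, so a gene without an entry of its name may still be among the unnamed ones. OSTN had been picked for its higher level in myotubes in these same libraries, so the values of the 4 genes are given as a description, with no test between the groups.

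The series compares 2 states of primary skeletal muscle cells from chicken (Gallus gallus) embryos, all at passage 1, with 3 libraries of each. The myoblast group was labelled proliferating and was kept in RPMI-1640 with fetal bovine serum at 15%. The myotube group was labelled differentiated and had been moved to RPMI-1640 with horse serum at 2%; both media held the same antibiotics. The kind and amount of serum therefore changed together with the state of the cells, and their effects cannot be told apart. Nothing in the labels says whether replicates came from separate embryos or cultures, so the p-values measure the spread between these libraries alone, which may be technical. Primary cultures can hold cells other than muscle cells, and in bulk RNA fewer cells of a type and less RNA per cell cannot be told apart.

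Total counts were between 21893152 and 27546527 per library, and values of single libraries are given throughout in the order of replicates 1 to 3. Myoblast replicate 3 stood apart from the other myoblast libraries: its summed level over 19 skeletal muscle marker genes was 7380 FPKM (reads scaled to gene length and library total, so that genes of different length can be compared), against 3954 and 3819 FPKM in replicates 1 and 2. The myotube libraries had 2273, 2202 and 2165 FPKM of the same markers. Of these 19 genes 12 were called lower in myotubes, 1 was called higher and 6 had no call. Without myoblast replicate 3, 13 of them were called lower and 2 higher. The libraries labelled myotube thus did not have more of the muscle markers than those labelled myoblast. Among all 15959 tested genes 29.1% were called lower and 30% higher, the background for each count of calls in a list given below.

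Natriuretic peptides are small hormones with a ring closed by a disulfide bond. In mammals NPR1, the receptor of the atrial and B-type peptides, and NPR2, the receptor of C-type natriuretic peptide, make cyclic GMP inside the cell when the peptide binds, and cyclic GMP activates PRKG1. NPR3 has no cyclase domain and takes the peptides up for degradation, for which it is called the clearance receptor. Osteocrin, also called musclin, is made in bone and skeletal muscle in mice. It resembles the natriuretic peptides and binds NPR3, which is known to leave more C-type natriuretic peptide for NPR2.

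OSTN (ENSGALG00000007226) lies on the minus strand of chromosome 9, from 13761297 to 13772476 in the deposited coordinates; no source used here names their build. It was at 0.524, 0.398 and 0.334 FPKM in the myoblast libraries against 37.0, 47.9 and 37.5 FPKM in the myotube libraries. The gene was thus near the bottom of the measured range in each myoblast library and far higher in each myotube library, and the lowest myotube value was 70.6 times the highest myoblast value. The read counts behind these levels were 7, 5 and 5 in myoblasts and 473, 595 and 446 in myotubes. A count of 7 has an exact 95% Poisson interval of 2.81 to 14.4 and a count of 473 one of 431 to 518, which cover counting error only. The size of the ratio therefore rests mainly on 17 myoblast reads in all, while the separation of the groups does not depend on any one library.

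The fitted log2 change of OSTN, myotube minus myoblast, was 6.64 ± 0.22 (SE, edgeR, n = 3 each), a 99.5-fold difference. It stayed between 6.50 and 6.82 when each library was left out in turn, and was 6.50 without myoblast replicate 3. Ranked by log2 change, OSTN was number 8 from the top of the 15959 tested genes. None of the 7 genes above it reached its mean myotube level. In myoblasts the mean FPKM of OSTN exceeded that of 6.44% of the tested genes, and in myotubes that of 82.4%. OSTN passed the filter on low counts through the myotube libraries alone.

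**Figure D1:**
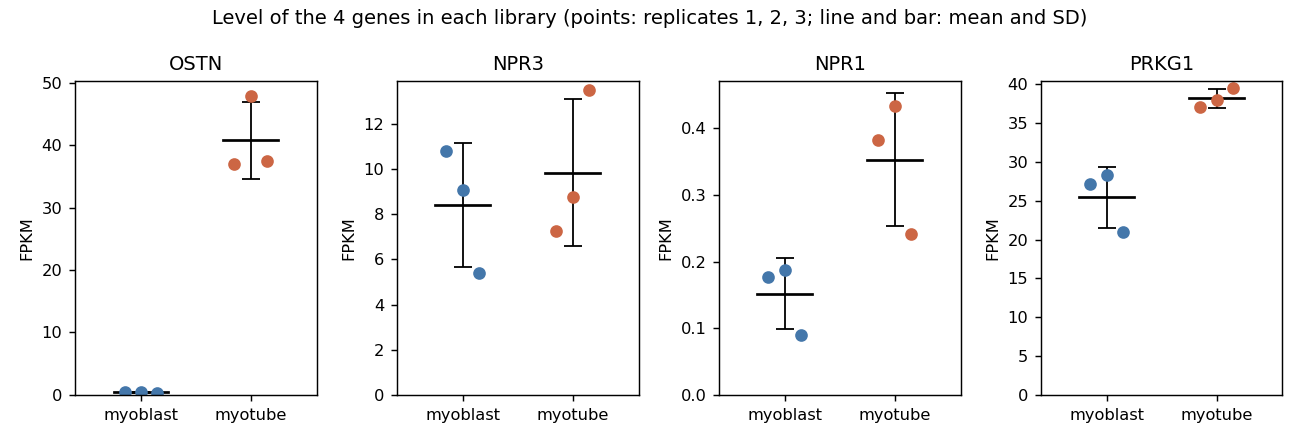
FPKM (vertical axes, each starting at 0) of OSTN, NPR3, NPR1 and PRKG1 in the 3 myoblast and 3 myotube libraries; points are libraries, the line is the mean and the bar the SD. OSTN lies between 37.0 and 47.9 FPKM in myotubes and under 1 FPKM in myoblasts, while the NPR3 values of the groups overlap.

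NPR3, the receptor that binds osteocrin, was present in both states. This gene (chromosome Z, minus strand, 10035886 to 10086792) was at 10.8, 9.06 and 5.39 FPKM in the myoblast libraries against 7.28, 8.77 and 13.5 FPKM in the myotube libraries. The groups overlapped, with the lowest value in myoblast replicate 3 and the highest in myotube replicate 3. The means were 8.43 ± 2.78 and 9.86 ± 3.27 FPKM (SD, n = 3 each), and the log2 change was 0.28 ± 0.28 (SE). It was 0.05 without myoblast replicate 3, 0.0028 without myotube replicate 3 and 0.51 without myoblast replicate 1, so single libraries set its size.

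NPR1, the cyclase receptor of the atrial peptide, was very low in every library. Its entry on chromosome 25 (minus strand, 1686534 to 1700288) had 14, 14 and 8 reads in the myoblast libraries against 29, 32 and 17 in the myotube libraries. These are 0.177, 0.188 and 0.0902 FPKM against 0.383, 0.434 and 0.241 FPKM. The myotube values all lay above the myoblast values, but the exact 95% Poisson interval of the 17 reads in myotube replicate 3, 9.90 to 27.2, takes in the 14 reads of myoblast replicates 1 and 2. The log2 change was 1.29 ± 0.37 (SE), and 1.02 without myoblast replicate 3. An unnamed entry on the opposite strand overlaps that of NPR1 and had 0 to 3 reads per library. The entry lies next to ILF2, whereas a RefSeq table of a later assembly (GRCg7b) gives the symbol NPR1 to a gene on chromosome Z, so the identity of the chromosome 25 entry rests on the name in the deposited tables.

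Of the summed FPKM of these receptors, NPR3 held 98.4%, 98.0% and 98.4% in the myoblast libraries and 95.0%, 95.3% and 98.2% in the myotube libraries. NPR3 was the more abundant of the pair in each library. NPR2, the receptor of C-type natriuretic peptide, is not part of this share. With reads divided by the tables' own length column the mean receptor share of NPR3 was 96.9% in myoblasts and 93.3% in myotubes.

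OSTN and its receptor thus stood in very different proportions in the 2 states. The NPR3 values of the groups overlapped, so these proportions mainly restate the change for which OSTN was picked. The ratio of OSTN to NPR3 in FPKM was 0.0484, 0.0439 and 0.0620 in the myoblast libraries against 5.09, 5.46 and 2.77 in the myotube libraries. The ligand transcript was the scarcer one in each myoblast library and the more abundant one in each myotube library. The lowest myotube ratio was that of replicate 3, where NPR3 was highest. With reads divided by the length column, which is longer for NPR3 than the length behind its FPKM, the ratio was 0.0878, 0.0797 and 0.113 against 9.25, 9.91 and 5.03.

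PRKG1, the kinase that cyclic GMP activates, was the most abundant of the 4 genes in myoblasts. It lies on the plus strand of chromosome 6, from 9868124 to 10254176. Its level was 27.1, 28.3 and 21.0 FPKM in the myoblast libraries against 37.1, 38.0 and 39.5 FPKM in the myotube libraries. The groups did not overlap, and the coefficient of variation was 3.24% over the myotube libraries and 15.3% over the myoblast libraries. The log2 change was 0.64 ± 0.10 (SE), or 0.54 without myoblast replicate 3. An unnamed entry on the same strand, 2981 bases beyond the end of PRKG1, went from 33.7 ± 5.88 to 61.2 ± 6.22 FPKM (SD, n = 3 each). It rose by 0.92 ± 0.14 on the log2 scale (SE, edgeR, Benjamini-Hochberg adjusted p = 0.000754).

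The groups were free of overlap in 3 of the 4 genes, against 67.2% of all tested genes, and this contrast was used to choose OSTN, so nothing is read from that count. In myoblasts the order of mean FPKM was PRKG1 at 25.5 ± 3.89, NPR3 at 8.43 ± 2.78, OSTN at 0.419 ± 0.0968 and NPR1 at 0.152 ± 0.0534 (SD, n = 3). Each step in that order was larger than the spread between libraries. The last step rests on 7, 5 and 5 OSTN reads against 14, 14 and 8 NPR1 reads, so counting error limits it. In myotubes OSTN at 40.8 ± 6.12 and PRKG1 at 38.2 ± 1.24 FPKM did not differ beyond their spread, and NPR3 at 9.86 ± 3.27 and NPR1 at 0.353 followed. With the length column PRKG1 was at 29.9, 30.6 and 31.9 in the myotube libraries, below each OSTN value, so the order of these 2 genes rests on the length used.

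Other genes of natriuretic peptide and cyclic GMP signalling moved in both directions. In 7 lists covering peptide processing, degradation, cyclases, phosphodiesterases, kinase substrates, G protein coupling and the growth plate axis, 50 of 64 symbols had an entry and 45 were tested. Of these 13 were called higher in myotubes, 16 lower and 16 had no call, with a median log2 change of -0.18. Among all 15959 tested genes 59.1% were called, 30.0% higher and 29.1% lower, and the median was 0.0003, so the share of calls in the pathway was close to that background. Without myoblast replicate 3, 14 were called higher and 16 lower. A gene was called at a Benjamini-Hochberg adjusted p under 0.05 in edgeR's quasi-likelihood test over all tested genes.

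Among the enzymes that process peptide precursors, PCSK6 rose. This proprotein convertase, which in mammals activates the atrial peptide protease corin, had 206, 219 and 147 reads in the myoblast libraries against 1863, 1954 and 1441 in the myotube libraries. The groups were far apart, and its level went from 2.81 ± 0.777 to 27.9 ± 3.64 FPKM (SD, n = 3 each; log2 change 3.38 ± 0.20, edgeR, Benjamini-Hochberg adjusted p = 6.21e-06). FURIN, a related convertase that cleaves the precursor of C-type natriuretic peptide in mammals, was at 24.7 ± 2.29 and 20.4 ± 1.84 FPKM with no call (adjusted p = 0.108, edgeR). CORIN itself had at most 3 reads per library and was not tested. The list's other symbols, NPPA and NPPB, had no entry under those names.

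Both genes for peptide-degrading enzymes fell. MME, which encodes neprilysin, a membrane protease that cleaves natriuretic peptides, had 219, 206 and 198 reads in the myoblast libraries against 26, 9 and 7 in the myotube libraries. It was low in each myotube library, with a log2 change of -3.69 ± 0.38 (SE, edgeR, Benjamini-Hochberg adjusted p = 8.84e-05) that became -4.48 without myotube replicate 1. IDE, the insulin-degrading enzyme, fell by a smaller amount, from 30.9 ± 0.537 to 22.3 ± 0.719 FPKM (log2 change -0.42 ± 0.07).

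Of 4 tested cyclases and nitric oxide synthases, 1 rose, 1 fell and 2 had no call. The soluble guanylate cyclase, which nitric oxide activates, pairs an alpha and a beta subunit. Its beta subunit gene GUCY1B3 was at 8.98 ± 0.986 and 9.91 ± 0.813 FPKM with no call (log2 change 0.20 ± 0.11), while its alpha subunit genes were far lower per length. GUCY1A3 was at 0.235 ± 0.0230 and 0.137 ± 0.0657 FPKM with no call. GUCY1A2 fell from 0.670 ± 0.151 to 0.157 ± 0.0170 FPKM (log2 change -2.03 ± 0.31). The inducible nitric oxide synthase NOS2 was called higher, at 3.56 ± 0.270 and 4.36 ± 0.235 FPKM, but lost the call without myotube replicate 3 (edgeR, Benjamini-Hochberg adjusted p = 0.0219, and 0.0650 without it).

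Among enzymes that break down cyclic GMP and pumps that export it, 3 rose, 3 fell and 2 had no call. PDE1A, a calcium-activated phosphodiesterase, fell from 2.10 ± 0.512 to 0.264 ± 0.0481 FPKM (SD, n = 3 each; log2 change -2.92 ± 0.29). PDE5, listed under that older name for PDE5A, the cyclic GMP-specific phosphodiesterase, was the highest of the phosphodiesterases in the list per length, at 16.9 ± 1.62 and 14.4 ± 3.10 FPKM, with no call. The pump genes ABCC4 and ABCC5 rose by 0.70 ± 0.17 and 0.41 ± 0.09 on the log2 scale. PDE3A was called lower by 0.34 and PDE10A by 0.41, and both lost the call without myoblast replicate 1 or 2 or myotube replicate 1 or 2, which leaves PDE1A as the 1 gene that fell (edgeR, Benjamini-Hochberg adjusted p from 0.0577 to 0.118 for PDE10A and from 0.0707 to 0.156 for PDE3A). PDE1C rose by 1.46 from 0.136 ± 0.0600 FPKM, and PDE3B had no call.

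Of 8 genes for cyclic GMP kinases and their substrates, 3 rose, 3 fell and 2 had no call. Without myotube replicate 2 only 1 of the 8 was called lower. MRVI1, also called IRAG1, encodes a PRKG1 substrate that restrains calcium release through inositol trisphosphate receptors. Its reads numbered 317, 278 and 287 in the myoblast libraries against 987, 971 and 1093 in the myotube libraries, with no overlap. The log2 change was 1.98 ± 0.11 (SE, edgeR, Benjamini-Hochberg adjusted p = 5.82e-06), which is 3.96-fold. ITPR1, one of those receptors, rose from 8.08 ± 1.16 to 16.0 ± 0.374 FPKM (log2 change 1.05 ± 0.10), and LRMP, a relative of MRVI1, rose by 0.73 ± 0.16. PRKG2, the other cyclic GMP kinase, was called lower at 0.254 ± 0.119 FPKM in myotubes (log2 change -1.15 ± 0.36), which was lost without myoblast replicate 3 or myotube replicate 1 or 2 (edgeR, Benjamini-Hochberg adjusted p = 0.0536, 0.0813 and 0.0917). RGS2, a brake on Gq signalling, fell by 0.57, a call lost without myotube replicate 2 (adjusted p = 0.0633, edgeR). The potassium channel gene kcnma1 fell by 0.44, a call lost without myoblast replicate 1 (adjusted p = 0.0521, edgeR). PPP1R12A, the myosin phosphatase subunit that PRKG1 acts on in smooth muscle, was at 46.4 ± 2.62 and 44.9 ± 2.24 FPKM with no call.

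Most called genes typical of smooth muscle, where this kinase pathway is best known, rose. Of 7 tested smooth muscle markers 4 were called higher, 2 lower and 1 had no call. ACTA2 and SMTN of that list had no entry under those names. TAGLN rose from 222 ± 49.9 to 1179 ± 193 FPKM and LMOD1 from 12.8 ± 1.84 to 57.5 ± 3.13 FPKM, while CNN1 was called lower, at 56.9 ± 21.4 and 30.2 ± 1.40 FPKM, a call lost without myotube replicate 2 or 3 (edgeR, Benjamini-Hochberg adjusted p = 0.0589 and 0.0559). The summed level of the list ran from 830 to 1615 FPKM in myoblasts and from 1299 to 1717 FPKM in myotubes, and no entry of it was at 0. DES, which the skeletal muscle list also holds, fell from 811 ± 407 to 142 ± 7.98 FPKM. Without DES, a step not planned beforehand, the sum was 396, 288 and 336 FPKM in the myoblast libraries. In the myotube libraries it was 1569, 1316 and 1166 FPKM. Most of that sum was TAGLN, at 279, 199 and 188 FPKM in myoblasts against 1383, 1155 and 999 FPKM in myotubes. The part of such cells in the PRKG1 and MRVI1 values was not tested.

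NPR3 is reported to couple to inhibitory G proteins and phospholipase C in mammals. Of 12 tested genes of that coupling, 3 rose, 3 fell and 6 had no call. PLCB1, a phospholipase C, fell from 7.91 ± 0.637 to 2.65 ± 0.361 FPKM (log2 change -1.53 ± 0.13), and PLCB4 was called higher by 0.39 ± 0.12, which was lost without myoblast replicate 1 or myotube replicate 1 or 3 (edgeR, Benjamini-Hochberg adjusted p = 0.0556, 0.0573 and 0.0585). The adenylate cyclase ADCY7 rose by 0.75 ± 0.18, and ADCY5 fell by 0.61, a call lost without myotube replicate 2 (adjusted p = 0.0505, edgeR). The inhibitory G protein gene GNAI2 was called higher by 0.31, which was lost without myotube replicate 1 (adjusted p = 0.0847, edgeR), and GNAI1 had no call. Without that library 1 of the 3 rises, that of ADCY7, was called.

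In the growth plate of mammals C-type natriuretic peptide opposes signalling from FGFR3. Of 9 tested genes of that axis, 2 rose, 4 fell and 3 had no call. FGF-18, whose product is a ligand of FGFR3, rose from 0.674 ± 0.293 to 4.59 ± 0.392 FPKM (log2 change 2.82 ± 0.31, edgeR, Benjamini-Hochberg adjusted p = 0.000125). FGFR3 itself fell by 1.92 on the log2 scale to 0.128 ± 0.0408 FPKM, and the cartilage factors SOX6, SOX5 and SOX9 fell by 1.90, 1.36 and 0.90.

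**Figure D2:**
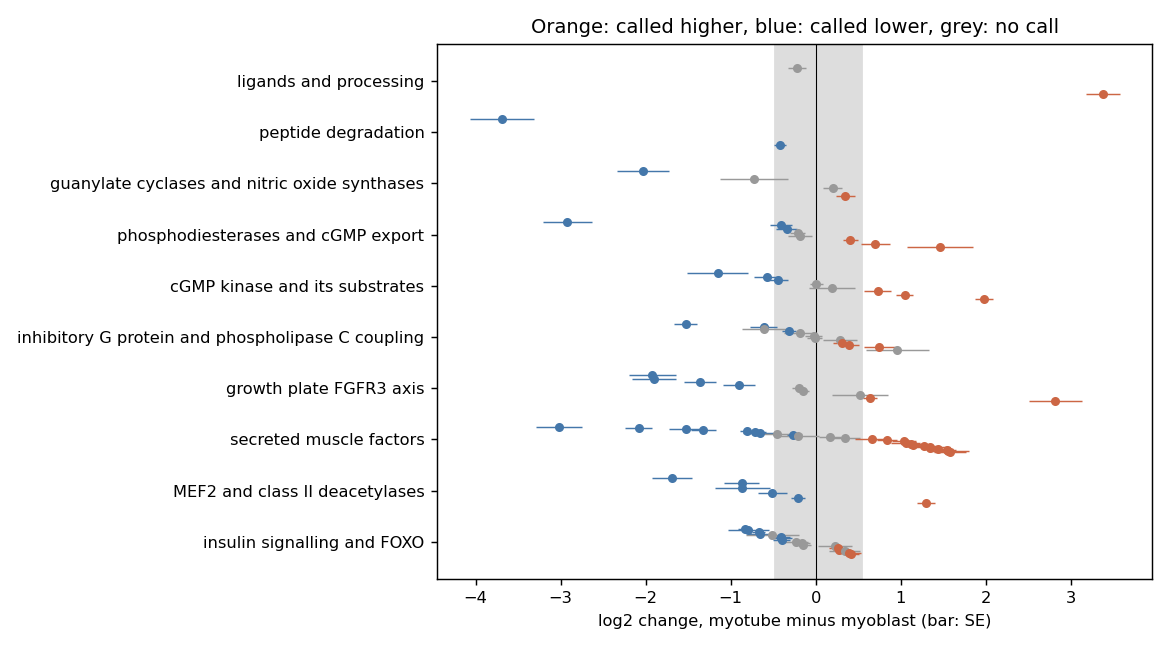
Log2 change, myotube minus myoblast (horizontal axis, bar: SE), of each tested gene of the 10 lists (vertical axis); the grey band runs from the lower to the upper quartile of all tested genes, from -0.48 to 0.54. The largest rise is PCSK6 at 3.38 and the largest fall MME at -3.69, and calls in both directions stand in 8 of the 10 lists.

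Other factors that muscle cells secrete were listed beside OSTN. Of 25 tested secreted muscle factors 13 rose, 8 fell and 4 had no call, against 30% higher and 29.1% lower among all tested genes. These 25 factors had a median log2 change of 0.66. Their log2 changes ran from -3.02 for LIF to 1.58 for SERPINF1, and that of OSTN was 6.64. OSTN was picked for its change, so nothing is read from that gap. LIF, an interleukin 6 family cytokine, went from 29.5 ± 4.20 to 3.50 ± 1.35 FPKM, and AGRN, which encodes the synapse organiser agrin, from 12.4 ± 2.47 to 2.81 ± 0.440 FPKM. SERPINF1, which encodes pigment epithelium-derived factor, rose 2.99-fold, and the cytokine IL15 rose from 1.68 ± 0.206 to 4.78 ± 1.18 FPKM, which is 2.94-fold.

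Regulators that have been tied to OSTN in mammals moved in both directions. In primate neurons MEF2 factors act on an OSTN enhancer, and in mouse muscle cells FOXO1 has been linked to its transcription under control of insulin. Of 6 genes for MEF2 factors and the class II deacetylases that restrain them, 5 fell and 1 rose. The log2 change was -0.87 ± 0.21 for MEF2A and -1.69 ± 0.24 for HDAC9, while HDAC7 rose by 1.30 ± 0.11. With each library left out in turn it was -1.03 to -0.55 for MEF2A, -1.88 to -1.36 for HDAC9 and -1.09 to -0.30 for MEF2C. MEF2A was at 80.6, 73.1 and 130 FPKM in the myoblast libraries and MEF2C at 65.9, 61.6 and 150 FPKM. Myoblast replicate 3 thus set much of the size of these MEF2 falls. Without any one of the myotube libraries 3 of the 6 were called, and MEF2C, at -0.86 ± 0.32, lost its call each time (edgeR, Benjamini-Hochberg adjusted p = 0.0473 with all libraries and 0.101 to 0.129 otherwise).

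Of 17 genes for insulin signalling and FOXO factors, 4 rose, 7 fell and 6 had no call. Without myotube replicate 2 or 3, 2 rose and 5 fell, without myotube replicate 1, 1 rose and 7 fell, without myoblast replicate 2, 1 rose and 8 fell, and without myoblast replicate 1, 2 rose and 6 fell. The receptor gene IGF1R fell by 0.67 ± 0.08, the kinase gene PIK3CB by 0.83 ± 0.08 and FOXO1 by 0.65 ± 0.15 on the log2 scale. FOXO1 was at 23.4 ± 4.39 FPKM in myoblasts and 14.4 ± 0.848 FPKM in myotubes (SD, n = 3 each; edgeR, Benjamini-Hochberg adjusted p = 0.00522). TRIM63, a muscle ubiquitin ligase that FOXO factors drive in mammals, fell by 0.79 and lost its call without myotube replicate 3 (adjusted p = 0.0744, edgeR), while FBXO32, another such ligase, was called higher by 0.39 ± 0.14. FBXO32 lost its call without myoblast replicate 1 or 2 or myotube replicate 1 or 2 (edgeR, Benjamini-Hochberg adjusted p from 0.0723 to 0.136). FOXO4 rose by 0.42 ± 0.09, and FOXO3 was called higher by 0.26 ± 0.10, a call lost without any one library but myoblast replicate 3 (adjusted p from 0.0784 to 0.135, edgeR).

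On its chromosome OSTN has a neighbour that rose as well. UTS2B, which encodes a peptide related to the vasoactive hormone urotensin 2, lies on the opposite strand with 3483 bases between the 2 entries, their 3′ ends facing each other. It had 1, 0 and 3 reads in the myoblast libraries against 15, 15 and 23 in the myotube libraries. These are 0.0478 ± 0.0528 and 0.749 ± 0.224 FPKM, so that UTS2B stayed far under OSTN in each myotube library. Its log2 change was 3.80 ± 0.62 (SE, edgeR, Benjamini-Hochberg adjusted p = 0.000987), or 4.96 without myoblast replicate 3. The entries do not overlap. Whether reads running past the annotated end of either gene add to the other was not tested.

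No other tested entry within 500 kb of OSTN was called higher. The window held 17 entries, 10 of them with a symbol, and 9 were tested: 1 was called higher, 4 lower and 4 not at all. FGF12, MB21D2, P3H2 and TP63, which lie farther out, fell by 1.20, 1.55, 2.10 and 2.28 on the log2 scale. IL1RAP was at 0.04 ± 0.12 and CLDN1 at 1.04 ± 0.46, both with no call. GMNC, TMEM207 and CLDN16 had at most 1 read in any library and were not tested. The 2 unnamed entries between FGF12 and UTS2B that could be tested were at 0.18 ± 0.08 and -0.01 ± 0.08, with no call.

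**Figure D3:**
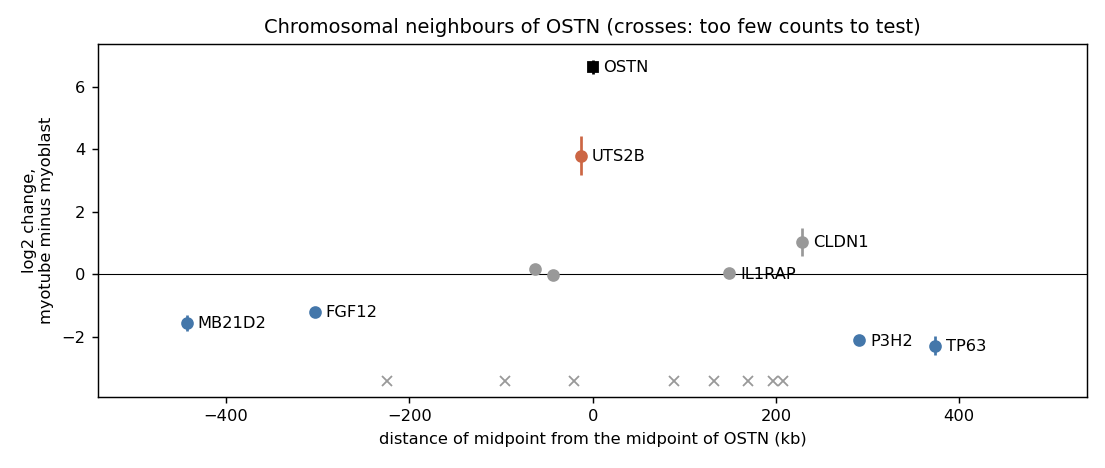
Log2 change, myotube minus myoblast (vertical axis, bar: SE), against the distance in kb of each entry's midpoint from that of OSTN (horizontal axis); orange was called higher, blue lower, grey had no call, and crosses mark entries with too few reads to test, drawn at an arbitrary height. UTS2B at 3.80 stands beside OSTN at 6.64, and the other tested neighbours lie between -2.28 and 1.04.

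The 5 genes with the profile closest to that of OSTN were GLT8D2, COL8A2, CXCL14, SMOC2 and RAPGEF3. Closeness was the root mean square difference of log2(CPM + 1), with CPM the counts per library total scaled by TMM, over the 6 libraries after centring each gene on its mean, a scale that shrinks the change of a gene as low as OSTN in myoblasts. The difference was 0.15 for GLT8D2, a glycosyltransferase family gene, and 0.16 for COL8A2, a network collagen chain. Their mean levels went from 1.89 to 39.3 FPKM and from 1.85 to 40.9 FPKM, near those of OSTN in myotubes. For the chemokine CXCL14, at 607 FPKM in myotubes, and the matrix protein gene SMOC2 it was 0.21, and for RAPGEF3, which encodes a cyclic AMP sensor, it was 0.22. With Pearson correlation in place of this measure none of the 5 stayed among the closest, and without myotube replicate 2, where OSTN was highest, 3 did. The profiles share the 2 groups and the libraries, so likeness over 6 libraries chiefly says that a gene is low in the first group and high in the second.

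**Figure D4:**
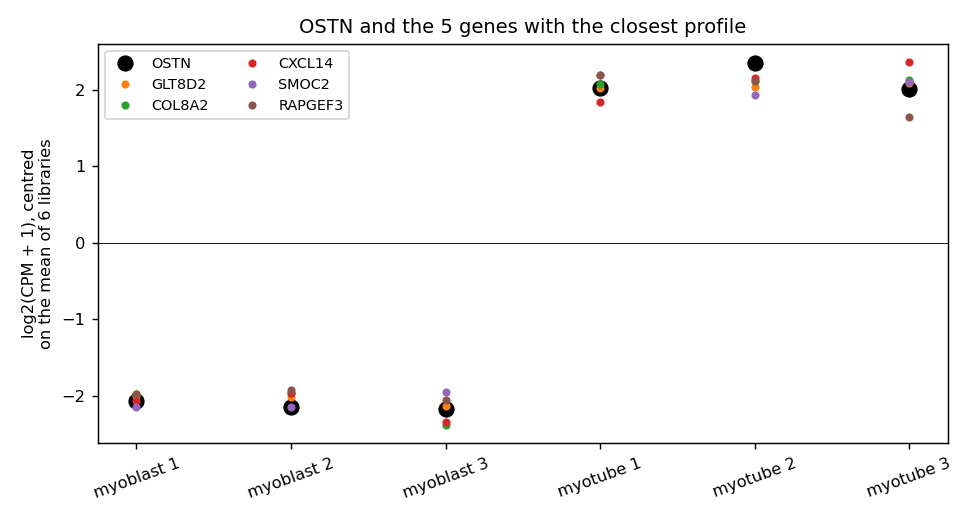
Log2(CPM + 1) of OSTN (large black points) and the 5 closest genes, centred on each gene's mean over the 6 libraries (vertical axis), by library (horizontal axis). Each gene lies near -2 in the myoblast and near 2 in the myotube libraries, and OSTN is highest in myotube replicate 2.

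OSTN is known from bone as well as muscle, and genes of other connective tissue cells moved beside it. Among 6 tested osteoblast markers there were 3 that rose and 1 that fell, and the list's summed level was 426 to 831 FPKM in myoblasts and 2277 to 2611 FPKM in myotubes. Nearly all of it was COL1A2, a collagen chain that fibroblasts also make, at 649 ± 209 and 2408 ± 170 FPKM. Genes of mature bone cells were at or near 0: BGLAP, which encodes osteocalcin, had 0 reads in every library, and IBSP and SOST stayed under 1 FPKM in each. RUNX2, the master regulator of osteoblasts, was at 5.41 ± 1.30 and 4.60 ± 0.611 FPKM with no call, and DLX5 fell by 1.92 on the log2 scale from 5.98 ± 2.24 FPKM.

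All 11 tested fibroblast markers were called higher, against 30% of all tested genes. The median log2 change of these markers was 1.95 (1.72 without myoblast replicate 3). Their summed level with TCF21, the entry not tested, ran from 1095 to 1918 FPKM in myoblasts and from 4663 to 5390 FPKM in myotubes, lowest in myoblast replicate 3. Of 5 tendon markers 3 rose, 1 fell and 1 had no call, with sums of 17.0 to 22.7 FPKM and 41.7 to 43.7 FPKM. SCX, the tendon transcription factor scleraxis, rose from 0.403 ± 0.139 to 15.7 ± 1.67 FPKM. Its log2 change was 5.28 ± 0.25 (SE, edgeR, Benjamini-Hochberg adjusted p = 2.36e-06). MKX rose from 3.95 ± 1.48 to 23.7 ± 1.07 FPKM (log2 change 2.65 ± 0.25) and FMOD from 0.284 ± 0.0326 to 1.14 ± 0.0395 FPKM. TNMD, a marker of mature tendon, was at 2.21 ± 0.412 and 1.92 ± 0.215 FPKM with no call, and THBS4 fell by 5.08 ± 0.17. The part of such cells in the OSTN values was not tested.

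Cartilage, endothelial and nerve markers were low. The cartilage list, of which 2 of 6 tested members rose and 3 fell, summed to 7.10 to 8.83 FPKM in myoblasts and 13.2 to 14.6 FPKM in myotubes. Most of the myotube sum was COMP, which rose from 1.53 ± 0.340 to 8.71 ± 0.690 FPKM (log2 change 2.58 ± 0.17, edgeR, Benjamini-Hochberg adjusted p = 9.91e-06). ACAN, COL9A1, COL10A1, MATN1 and MATN3 stayed under 1 FPKM in each library. Without myoblast replicate 1 or myotube replicate 3, 1 cartilage gene was called higher and 2 lower. Endothelial markers, with 3 of 5 lower and none higher, summed to 5.07 to 6.80 and 1.38 to 1.86 FPKM. Most of that was FLT1, which fell from 4.94 ± 0.956 to 1.24 ± 0.206 FPKM, and CDH5, KDR, TEK, TIE1 and VWF stayed under 1 FPKM. Nerve markers, with 1 of 7 higher and 3 lower, summed to 12.3 to 13.1 and 9.45 to 12.1 FPKM. Most of the myotube sum was NEFL, which rose from 0.931 ± 0.322 to 6.30 ± 0.651 FPKM (log2 change 2.83 ± 0.23). ELAVL4, SYT1 and GAP43 fell by 2.59, 1.68 and 1.06 on the log2 scale.

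**Figure D5:**
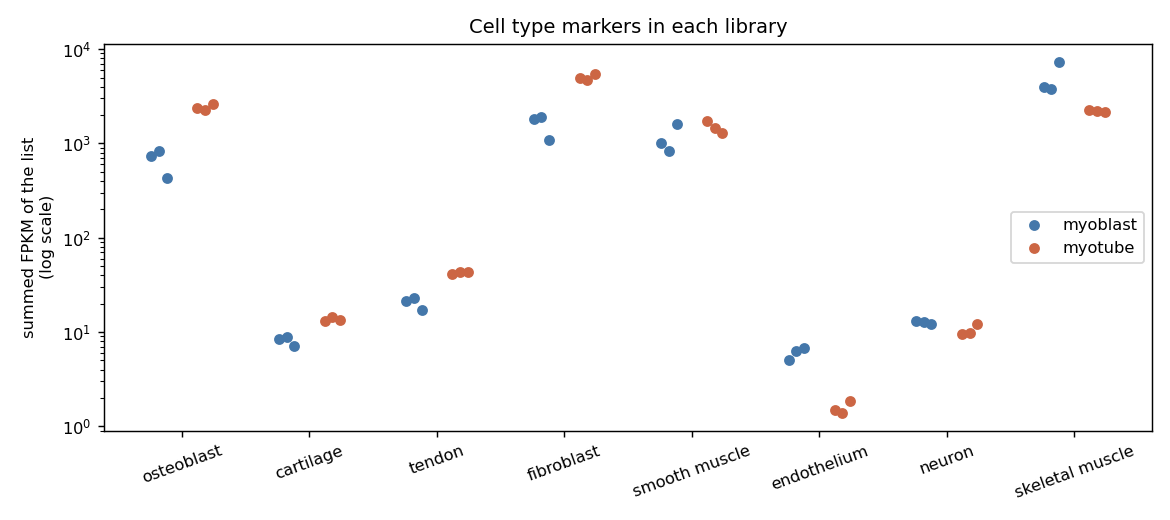
Summed FPKM of each marker list (vertical axis, log scale) by cell type (horizontal axis); each point is a library, blue for myoblast and orange for myotube. The fibroblast sums lie between 4663 and 5390 FPKM in myotubes, above all myoblast libraries, and the skeletal muscle sums lie below all myoblast libraries.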

How the data were processed

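The 6 deposited tables, 1 per library, give a raw read count and an FPKM value for each gene entry, per the file headers; both were made by the authors. HISAT and HTSeq are the tools named, per the submitters' processing notes. Versions, build, annotation, strand setting and filters: not given in the sources used here. The FPKM of OSTN used the length column of 543 bases, whereas those of NPR1, NPR3 and PRKG1 implied 3220, 2963 and 1799 bases in place of the 3241, 5382 and 2229 listed. The 2 lines per table that name no gene were left out. No 2 libraries were identical.

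The contrast across all genes was edgeR's quasi-likelihood test (edgeR 4.0.16, R 4.3.3) on the deposited counts, with filterByExpr (minimum count 10, total 15), TMM scaling, 2 groups without a block, two-sided tests and adjustment by Benjamini-Hochberg over 15959 genes. The script was tested on simulated data with far fewer changed genes than were called here, so that test does not cover a contrast this broad. SE was taken as the absolute log2 change over the root of F. The 18 lists held 221 symbols, of which 172 had an entry, 8 of them under a synonym. Named genes were the members, the neighbours of OSTN, the 5 closest profiles, in each list up to 4 called genes of at least 1 FPKM on average with the largest change, and others of the processing, degradation, cyclase and phosphodiesterase lists. Further list or marker genes were named after their values were seen. Among them were GNAI1, GNAI2, PRKG2, kcnma1, PPP1R12A, FGFR3, FBXO32, FOXO3, FOXO4, RUNX2, TNMD, FMOD, CNN1 and MYH11. Members and lists were chosen with earlier results of these data known. Alternatives used DESeq2 1.42.0, limma 3.58.1 on log2(FPKM + 0.1, 1 or 5), other scalings, no filter, a replicate block, and each library left out.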

Additional observations from a re-analysis of the deposited data

How the results depend on the processing

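The signs of the fitted log2 changes of OSTN, NPR1, NPR3 and PRKG1 were the same under all 14 alternative fits, and no named gene with a call changed sign. Named genes without a call, such as IL1RAP (0.04, from -0.05 to 0.12 with 1 library left out), can change sign. By limma on log2(FPKM + 0.1), log2(FPKM + 1) and log2(FPKM + 5) OSTN was at 6.31, 4.87 and 3.07 and NPR1 at 0.85, 0.23 and 0.06, as the pseudocount outweighs low values. Leaving out each library gave 6.50 to 6.82 for OSTN and 1.02 to 1.51 for NPR1. The NPR3 share was 96.9% in myoblasts and 93.3% in myotubes with the length column. On total counts without TMM 2 genes of the ligand and processing list were called in place of 1. In the list of cyclases and nitric oxide synthases 1 gene was called in place of 2 by that scaling and by limma with each of the 3 pseudocounts, and 1 to 2 with each library left out. The count of calls was 3 to 6 for the MEF2 list and 7 to 11 for the insulin list when each library was left out. Over all genes it was 9436, and 7961 to 10000 without 1 library.

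Libraries with the same replicate number did not deviate together (correlations of 0.037, 0.0296 and -0.0496). With 3 libraries per group, and myoblast replicate 3 apart from the others, these values cannot show whether same-numbered libraries share an origin. With a replicate block 8960 genes were called, the OSTN change was 6.63 and 28 of the pathway genes were called in place of 29, a count added after the data were seen. The calls of PDE10A, PDE3A and FBXO32 were lost (adjusted p = 0.0559, 0.0898 and 0.0603, edgeR). By DESeq2 MEF2C and FOXO3 lost their calls (adjusted p = 0.0803 and 0.0636). With 17 myoblast reads of OSTN and 8 to 32 reads of NPR1 per library, depth limits the size of both ratios.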

Other observations

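The 7 tested genes with a larger log2 change than OSTN were singled out after their values were seen. Of these, 1 has a symbol, BRN3, a name of POU-domain transcription factors of sensory neurons. It had 0, 0 and 1 reads in the myoblast libraries (replicates 1 to 3) against 161, 107 and 84 in the myotube libraries, and its mean myotube level was 4.42 ± 1.34 FPKM (SD, n = 3). The highest mean myotube level among the 7 was 27.5 ± 2.19 FPKM, in an entry without a name on chromosome 13 that had 2, 4 and 10 reads in myoblasts and 1768, 1491 and 1451 in myotubes. Beside NPR3 on chromosome Z, 15366 bases away on the opposite strand, TARS, which encodes threonyl-tRNA synthetase, rose from 41.9 ± 7.14 to 86.0 ± 3.77 FPKM (n = 3 each; log2 change 1.10 ± 0.12, edgeR quasi-likelihood, Benjamini-Hochberg adjusted p = 0.000102).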
